A study of Mus musculus with 6 samples.

Results

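The comparison described here sets epiblast-like cells (EpiLC) given CHIR99021 and PD0325901 together against EpiLC given CHIR99021 alone. EpiLC are a culture state resembling the early post-implantation epiblast, and these were made from mouse embryonic stem cells (mESC) of the EB3 line. CHIR99021 (CHIR) inhibits the kinase GSK3 and so stabilises beta-catenin, and PD0325901 (PD) inhibits MEK, the kinase that activates ERK1/2. The comparison uses 2 of the 6 arrays of the series, picked by their labels. The comparison and its gene lists were chosen with earlier results of these data known. The log2 difference was taken for each of 22180 genes measured by probes with a single gene symbol. A positive difference means a higher level with PD.

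Both cultures were induced for 2 days on serum-coated dishes in N2B27 medium, with Activin A at 20 ng/ml and bFGF at 12 ng/ml. Both received 3 µM CHIR for 24 hours, and 1 of them also received 1 µM PD for those 24 hours. An untreated EpiLC array serves as background, and 3 arrays of the parent mESC, kept with LIF and BMP4 (untreated, CHIR, CHIR with PD), show the same treatments in the starting cells. PD was given only on top of CHIR, the position of the 24 hours within the induction is not stated in the labels, and all cells come from 1 line. Each group was 1 array, so no difference below has an error or a p-value, and every statement of higher or lower compares 2 cultures rather than 2 conditions.

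FGF signalling activates ERK1/2 through RAS, RAF and MEK. ERK1/2 in turn switches on Ets-type transcription factors, immediate early genes, and its own inhibitors of the Sprouty, Spred and dual-specificity phosphatase families. In the early embryo this pathway moves the epiblast out of naive pluripotency and, with Wnt and Nodal signals, is needed to form mesoderm at the primitive streak. GSK3 inhibition mimics a Wnt signal, whose nuclear readout is the activity of beta-catenin at TCF/LEF factors.

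The deposited value of a probe is a linear intensity with a lowest value of 16 on every array, and the median probe lay between 60.5 and 65.2 on the 6 arrays. With PD, 230 genes (1.04% of all measured) were higher by 2-fold or more, and 225 (1.01%) were lower by as much. At least 4-fold differences were seen in 44 genes (0.198%) that were higher and 63 (0.284%) that were lower. All genes together had a median log2 difference of -0.02 and an SD across genes of 0.37, with 95% of them between -0.64 and 0.66. Below, counts of list members past 2-fold are to be read beside the 1.04% (higher) and 1.01% (lower) of all genes. Counts of members merely higher or lower are to be read beside the median of -0.02. The share of all genes on each side of zero is not given. The 24 ribosomal protein genes, used as a gauge of steady genes, had a median of -0.06 and ran from -0.43 to 0.23. Among the genes past 2-fold, 15 of the higher and 15 of the lower ones stayed under the median gene's intensity of 78.1 on both arrays. In contrast, 152 of the higher ones exceeded 200 with PD, and 147 of the lower ones exceeded 200 with CHIR alone. A total of 1082 genes had more than 1 probe, whose log2 differences spanned a median of 0.19 within a gene. Of these genes, 16 were past 2-fold on the mean of their probes. In all 16 every probe pointed the same way, but only in 8 was every probe at least 2-fold different.

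**Figure D1:**
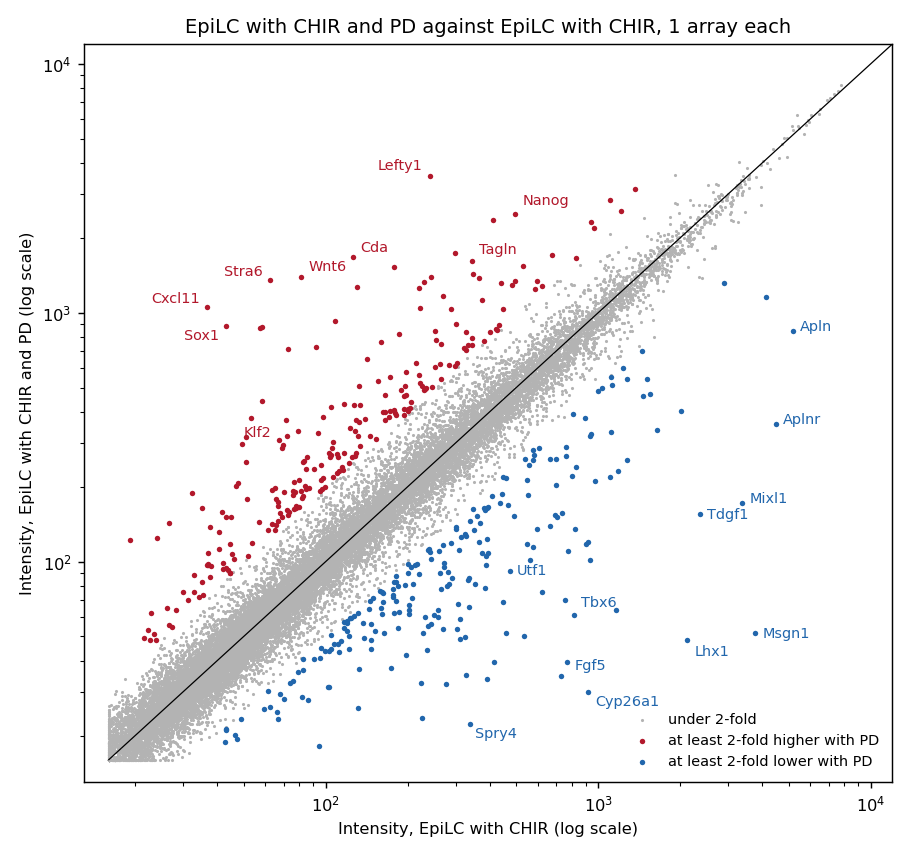
Intensity of each of 22180 genes in EpiLC with CHIR (horizontal, log scale) against EpiLC with CHIR and PD (vertical, log scale), 1 array per axis; coloured points differ at least 2-fold and the line marks equal intensities. The 230 red genes and 225 blue genes lie on opposite sides of the line, with Msgn1, Lhx1 and Cyp26a1 farthest below it and Cxcl11, Stra6 and Sox1 farthest above.

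In what follows, a trio of intensities without further wording is in the order untreated, CHIR, CHIR with PD, all in EpiLC. The 6 marker genes given for this comparison split by direction. Msgn1, a transcription factor of presomitic mesoderm, stood at 65.2, 3768 and 51.7, which is 72.9-fold lower with PD than with CHIR alone and the largest difference of any named gene. Tdgf1, the Nodal co-receptor Cripto, stood at 2873, 2354 and 156. Both genes were thus low with PD, but Msgn1 was low without inhibitors as well and Tdgf1 was not. Nanog, a core pluripotency factor, stood at 709, 496 and 2498, and the Nodal antagonist Lefty1 at 407, 240.4 and 3548. Sox1, an early neuroectoderm factor, stood at 53.5, 43.2 and 885, and Stra6, the receptor that takes up retinol, at 45.3, 62.2 and 1356. These 4 genes reached their highest EpiLC level with both inhibitors. In mESC none of the 6 differed 2-fold between CHIR and CHIR with PD, the log2 differences running from -0.11 (Tdgf1) to 0.45 (Nanog).

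The cell state named on the labels was set against its markers. Fgf5 and Otx2, defining genes of EpiLC, stood at 1259, 770.0 and 39.4 and at 1025, 309.7 and 59.0, so both were far lower with CHIR and PD than in untreated EpiLC. Of the naive list, every gene except Gbx2 was lower on that array than in mESC with both inhibitors. Gbx2, a homeobox factor, was at 366 against 261. Esrrb was at 33.7 against 524 in mESC with both inhibitors, Tbx3 at 44.9 against 1165, and Zfp42 (Rex1) at 257 against 2454. Pou5f1 (Oct4), the gatekeeper of pluripotency, stood at 1289, 881 and 558. The other epiblast markers, Nanog, Sox2 and Pou3f1, chosen with earlier results of these data known, were higher with PD than with CHIR alone. Their log2 differences were 2.33, 1.51 and 0.24. Against untreated EpiLC, Nanog was higher with both inhibitors (2498 against 709) and Pou3f1 lower (145 against 538). The culture with both inhibitors therefore had low Fgf5 and Otx2, while the epiblast markers as a set ran in both directions. Apart from Gbx2, its naive genes were below their mESC levels. It is called EpiLC here after its label. In a bulk array a lower level may reflect fewer cells with the transcript or less transcript per cell, which cannot be told apart.

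Several genes known to respond to ERK, though not all of them, were low with PD, and some were lower than in untreated EpiLC. ERK activity itself was not measured. Of the 13 feedback inhibitors of the RAS-ERK pathway measured, 11 were lower and 5 at least 2-fold lower (median log2 difference -0.66, against -0.02 over all genes), a share to be read beside the 1.01% of all genes. Spry4, a Sprouty inhibitor of receptor tyrosine kinase signalling, stood at 346, 338 and 22.3. Spry2 stood at 672, 446 and 68.6, and Spred3, a RAS inhibitor of the Spred family, at 912, 915 and 119.9. None of these 3 was at least 2-fold higher with CHIR than without it, and each was over 4-fold under the untreated level with PD. Spred1 stood at 432, 702 and 258 and Il17rd (Sef), a membrane inhibitor of FGF signalling, at 369, 457 and 216. Spry1 differed less, at 159, 99.4 and 78.9, and Lrig1, a negative regulator of growth factor receptors, stayed high at 89.0, 432 and 396.

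The MAP kinase phosphatases divided by member. Dusp4, a nuclear ERK phosphatase, stood at 665, 930.2 and 101. The ERK-selective phosphatase Dusp6 was measured by a pair of probes, of which the bright one went from 2040.4 with CHIR to 79.0 with PD and the dim one from 44.7 to 36.7. Those were the 2 of 12 phosphatase genes past 2-fold, beside 1.01% of all genes that were lower by as much. Dusp1, Dusp8 and Dusp14, which act mainly on stress-activated kinases or on several MAP kinases, were on the other side of zero. Dusp1 stood at 687, 374 and 738, Dusp8 at 75.3, 69.8 and 132 and Dusp14 at 156, 171 and 298, with log2 differences of 0.98, 0.92 and 0.80. The median over the 12 genes was 0.24.

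The PEA3 group of Ets factors, classical FGF-ERK targets, was low as a whole. Etv4 stood at 211, 226 and 23.6, and its intensity with PD was close to the lowest value of the array. The brighter probe of Etv5 went from 630.5 to 50.4 and that of Etv1 from 572 to 29.9, and their dimmer probes from 198 to 132 and from 184 to 83.4. The other 20 Ets genes included 2 that were at least 2-fold higher, namely Fli1 at 220.1, 179.6 and 395 and Elf1 at 124, 121 and 248, and no further gene at least 2-fold lower. Ets1 was close to that mark at 61.1, 109 and 211.

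Among 21 immediate early and Myc genes, only Egr1 was at least 2-fold lower and only Jun at least 2-fold higher. Egr1, a zinc finger factor induced within minutes of ERK activation, stood at 308, 276 and 32.1. Jun, an AP-1 subunit, stood at 261, 321 and 719, its relative Jund at 254, 232 and 437, and Atf3, a stress-induced bZIP factor, at 166, 246 and 435. The AP-1 partner Fos was lower at 90.6, 158 and 81.9. Myc, a growth regulator, was stepwise lower at 721, 276 and 150.4, whereas the cyclin D1 gene Ccnd1 hardly differed between the treated arrays at 1268, 859 and 836.

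FGF ligands and the cascade itself were mostly level. Of 17 ligand genes Fgf5 was at least 2-fold lower and Fgf4 at least 2-fold higher. Fgf4, an autocrine ligand of pluripotent cells, stood at 508, 53.7 and 119, so with PD it was between the CHIR and the untreated level. Fgf8, a ligand of the streak, was highest with both inhibitors. Of 16 receptor and cascade genes, Fgfr2 alone was past 2-fold at 70.3, 44.6 and 117, and Fgfr1, the main FGF receptor of the epiblast, stood at 399.8, 744 and 1011. The MEK genes Map2k1 and Map2k2 had log2 differences of -0.39 and -0.25.

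**Figure D2:**
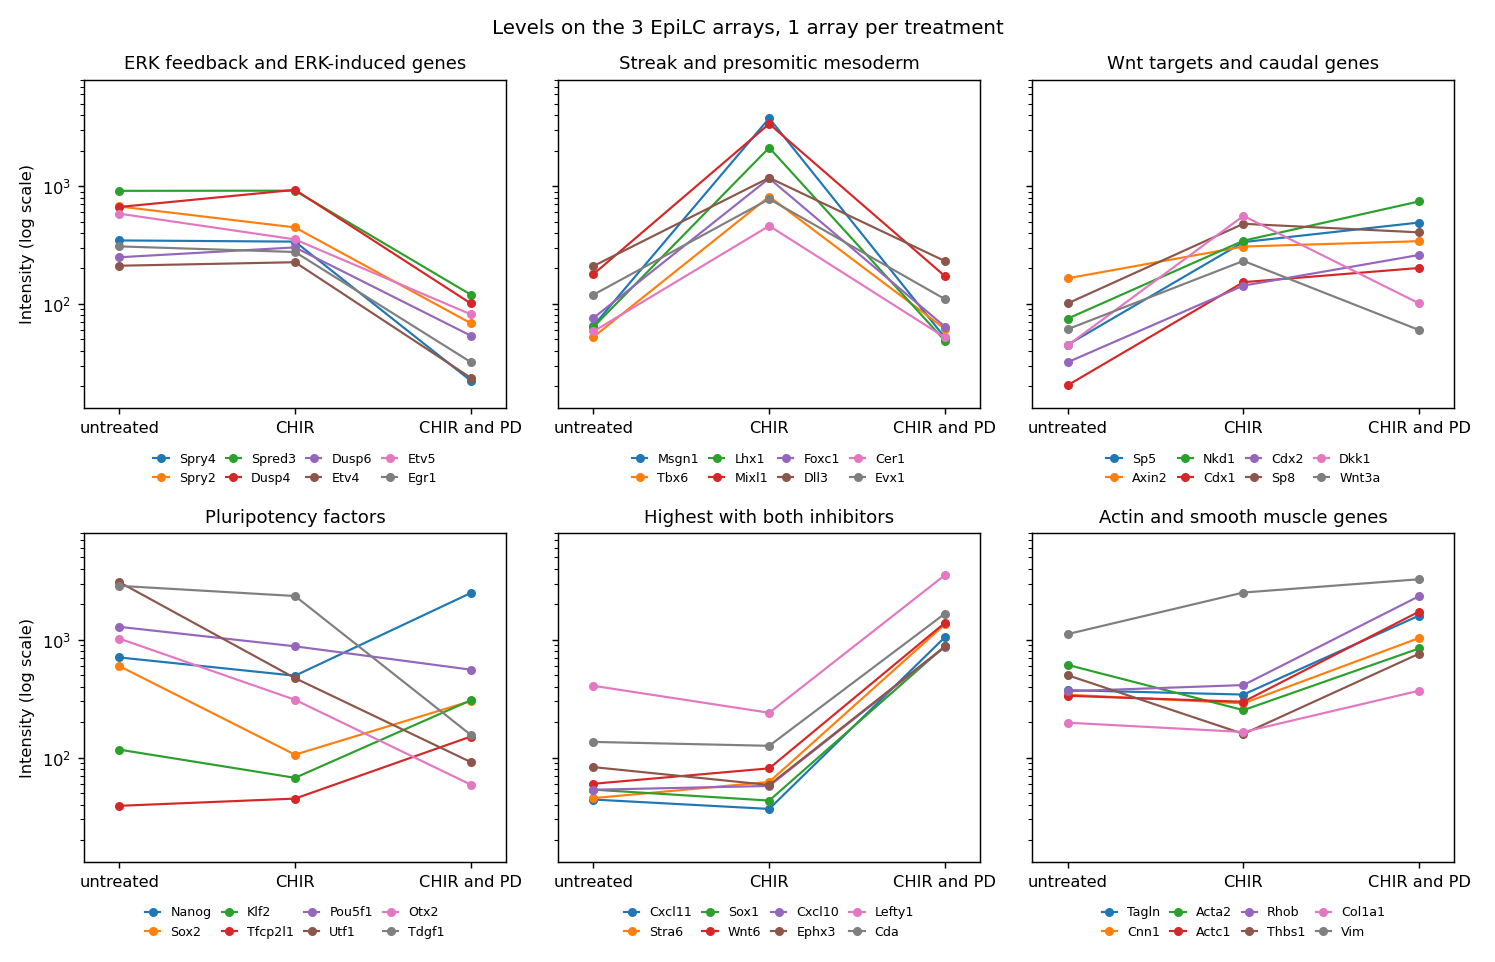
Intensity (log scale) of named genes on the 3 EpiLC arrays in the order untreated, CHIR, CHIR and PD, 1 array per point, with lines joining the values of a gene. Streak and presomitic genes peak with CHIR alone, Spry4, Etv4 and Egr1 are low only with PD, and the genes of the lower middle panel are highest with both inhibitors.

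Several mesoderm genes that stood high with CHIR alone were near the untreated level with PD. Of 18 primitive streak and mesendoderm genes measured, 14 were lower with PD and none was at least 2-fold higher (median -0.62). The 7 that were at least 2-fold lower are to be read beside the 1.01% of all genes. Lhx1, a LIM homeobox factor of the anterior streak, stood at 63.7, 2121 and 48.6, and Mixl1, a homeobox factor of mesendoderm, at 179, 3378 and 172. Cer1, a secreted antagonist of Nodal, Wnt and BMP, stood at 58.4, 460.0 and 51.9, Evx1, a homeobox factor of the posterior streak, at 119.7, 777 and 109.8, and Gsc, an organiser homeobox factor, at 79.4, 185 and 79.7. For these 5 genes the log2 difference of CHIR with PD from untreated EpiLC ran from -0.39 (Lhx1) to 0.01 (Gsc). Eomes, a T-box factor of the streak, differed in kind, since it stood at 345, 389.9 and 33.7 and was about equally high without inhibitors and with CHIR alone.

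Of the streak list 4 genes were higher with PD, all by less than 2-fold. Fgf8 had the highest difference of the list at 91.3, 286 and 533. Cdx1, a caudal homeobox factor, stood at 20.4, 153 and 202, the Wnt ligand Wnt3 at 199, 322 and 404, and Nkx1-2, a marker of the caudal epiblast, at 125, 273 and 297. Aplnr, described with its ligands further on, was lower with PD and still above untreated EpiLC. Brachyury (T) was not measured by a probe with a single symbol and is not reported. Mesp1 and Mesp2, factors of nascent mesoderm, were flat at 184, 198 and 191 and at 44.5, 54.5 and 47.5, so neither was high on any EpiLC array. Foxa2 and Sox17, factors of definitive endoderm, had smaller differences, at 175, 311 and 197 and at 162, 236 and 158.

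Of 19 paraxial and presomitic mesoderm genes, 6 were at least 2-fold lower and none higher by that measure (median -0.20). Over all genes the shares were 1.01% and 1.04%. After Msgn1 came Foxc1, a forkhead factor of paraxial mesoderm, at 76.0, 1164 and 64.1, and Tbx6, a T-box factor that directs cells to a paraxial fate, at 52.5, 816 and 61.3. Dll3, a Notch ligand of the presomitic mesoderm, stood at 209.7, 1177 and 231, and the mesenchymal cadherin Cdh11 at 53.3, 309.8 and 48.7. All 5 were near their untreated intensities with PD. Rspo3, a secreted amplifier of Wnt signalling, kept part of its CHIR level at 45.9, 708 and 151. Oscillating and somite genes, namely Hes7 at 102, 89.2 and 81.4, Lfng at 153, 193 and 223 and Meox1 at 79.1, 67.3 and 59.1, differed little between any of the EpiLC arrays, so the later segmentation genes were not high with CHIR alone either.

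Apelin signalling genes are known in early mesoderm and vessels. The receptor gene Aplnr stood at 33.7, 4485 and 356, so it was 12.6-fold lower with PD and still 10.6-fold above untreated EpiLC. The ligand gene Apln stood at 878, 5177 and 842. Apela, which encodes another ligand of the same receptor, ran the other way at 268, 77.7 and 165. Some genes outside these lists were also high with CHIR alone. Cdh20, a cadherin gene, stood at 81.9, 535 and 50.3, Plxna2, a semaphorin receptor gene, at 43.1, 730.1 and 34.7, and Frzb, a gene for a secreted Wnt antagonist picked out once the values were known, at 27.2, 328 and 35.1.

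Lateral plate, cardiac and blood-vessel genes were mostly dim. Among 20 of them Kdr, the VEGF receptor of early vascular mesoderm, stood at 47.4, 103 and 43.5 and Gata4, a factor of heart and endoderm, at 56.4, 105 and 44.6, and these were the only ones past 2-fold, both lower. Gata6 and Pdgfra, shared by primitive endoderm and mesoderm, stood at 85.9, 619 and 75.6 and at 18.0, 224 and 32.4. Sox7 at 43.0, 47.3 and 50.9, Hnf4a at 62.4, 58.5 and 54.3 and Afp at 46.2, 63.3 and 46.2, which belong to extraembryonic endoderm, were dim on all EpiLC arrays. Of the 17 primitive and visceral endoderm genes 4 were at least 2-fold lower, beside 1.01% of all genes. Sparc, a secreted matrix protein of parietal endoderm and many other cells, was higher at 936, 966 and 2192.

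Of 36 Hox genes, only Hoxb1 and Hoxb2 passed 2-fold, both lower. These early members of the Hoxb cluster stood at 43.0, 2008 and 403 and at 34.4, 1102 and 219, so they were 4.98-fold and 5.03-fold lower with PD but still 9.37-fold and 6.36-fold above untreated EpiLC. The remaining 34 lay between -0.43 (Hoxa3) and 0.29 (Hoxd1) on the log2 scale.

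The readouts of beta-catenin split into a set that stood as high or higher with PD and a set that was low. Of 20 Wnt target and feedback genes, 2 passed 2-fold upward and 4 downward (median -0.01), beside 1.04% and 1.01% of all genes. Sp5, a zinc finger factor directly induced by Wnt, stood at 45.0, 335 and 491, Axin2, a scaffold of the destruction complex and a standard Wnt reporter, at 165, 307 and 341, and the feedback inhibitor Nkd1 at 75.0, 344 and 742. Notum, which removes the lipid from Wnt proteins, was higher as well. Its brighter probe went from 76.3 with CHIR to 309.7 with PD and the other from 56.2 to 102. Znrf3 and Rnf43, ligases that remove Wnt receptors, stood at 248, 341 and 406 and at 37.7, 77.3 and 87.3.

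On the low side were Dkk1, a secreted Wnt antagonist, at 44.5, 559 and 101, and Apcdd1, a membrane antagonist, at 82.3, 201 and 66.9. Lef1, a TCF/LEF factor, stood at 1233, 1448 and 700.4, and Ascl2, a Wnt-linked bHLH factor, was dim at 72.4, 62.3 and 26.1. Tcf7l1, the repressive TCF factor of pluripotent cells, was higher with PD at 924, 357 and 665, without passing 2-fold, and Ctnnb1, which encodes beta-catenin itself, was level at 1441, 1510.0 and 1627. Wnt targets were therefore neither uniformly kept nor uniformly low.

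The caudal epiblast list showed the same division. Cdx2 at 32.0, 143 and 260.5, Sp8, a relative of Sp5, at 101, 479 and 405, and Wnt5a, a ligand of the extending axis, at 155, 496 and 494 stayed at or above the CHIR level apart from a small drop in Sp8. Cyp26a1, Evx1, Wnt3a and Fst were at least 2-fold lower, 4 of the 12 genes. Wnt3a, the ligand of the presomitic and tail bud region, stood at 61.0, 232 and 60.0.

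Wnt ligand genes included one of the highest differences of the comparison. Wnt6, a ligand of surface ectoderm and extraembryonic tissue, stood at 60.0, 81.1 and 1396 (17.2-fold higher with PD), and Wnt4 at 87.8, 69.1 and 286. Wnt5b, at 71.3, 146 and 48.5, joined Wnt3a as lower, and the other 15 of 19 ligands lay within 2-fold. Rspo1, a secreted Wnt amplifier picked out once the values were known, was high with PD at 339, 269 and 1171, opposite to Rspo3.

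Promoters of a gene that was low with PD and of a Wnt target that was not are shown because both carry the TCF/LEF core CTTTGA. Each stretch is the 250 bases before the RefSeq start of the gene (build GRCm38.p6), 5′ to 3′ on the strand of the gene, with CTTTGA or its reverse complement in capitals. The Msgn1 stretch is chr12:11208949-11209198 on the minus strand, with the core 143 bases before the start on the strand of the gene and 202 bases before it on the other strand. The Sp5 stretch is chr2:70474673-70474922 on the plus strand, with the core 204 and 104 bases before the start.
Msgn1: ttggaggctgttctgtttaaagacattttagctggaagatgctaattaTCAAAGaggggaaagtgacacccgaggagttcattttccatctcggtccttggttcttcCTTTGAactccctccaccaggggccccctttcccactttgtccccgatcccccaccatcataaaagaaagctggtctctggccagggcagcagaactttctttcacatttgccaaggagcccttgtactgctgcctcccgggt
Sp5: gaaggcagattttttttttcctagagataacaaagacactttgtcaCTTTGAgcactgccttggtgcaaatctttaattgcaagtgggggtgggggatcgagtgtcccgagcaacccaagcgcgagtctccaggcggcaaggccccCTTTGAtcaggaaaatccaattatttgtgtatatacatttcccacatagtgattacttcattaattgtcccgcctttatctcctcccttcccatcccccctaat
Both promoters hold the core at 2 places, while the levels with PD were 51.7 for Msgn1 (from 3768) and 491 for Sp5 (from 335). Of 27025 RefSeq promoters of this length 14.0% held CTTTGA on either strand, against 13.2% of the 16990 with a measured gene, 11.8% of 178 with a gene at least 2-fold lower and 6.67% of 165 with a gene at least 2-fold higher. The Ets motif CCGGAAG was in 9.06% of promoters of measured genes, 3.93% of the lower and 1.82% of the higher set, and the AP-1 motif TGAGTCA in 4.11%, 2.25% and 1.82%. The T-box motif AGGTGTG was in 4.68%, 6.18% and 4.24% of the same sets. The 4 motifs do not contain one another, each was searched on both strands, and a match is a run of letters rather than a bound site.

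Nodal and Activin genes, of interest because Activin A was in the medium of both cultures, diverged within the pathway. Of 13 ligand, receptor and co-receptor genes Tdgf1 alone passed 2-fold, and it was 15.1-fold lower. The ligand gene Nodal stood at 398, 374 and 579 and the type I receptor gene Acvr1b at 146, 209 and 199, neither of them past 2-fold. Among the 17 effectors, targets and antagonists, 4 were higher by at least 2-fold and 2 were lower.

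Lefty1 was 14.8-fold higher with PD than with CHIR alone. Its neighbour Lefty2, another Nodal-induced antagonist, was level between the treated arrays at 209, 495 and 556. Pmepa1 and Ldlrad4, related membrane proteins that sequester receptor-activated SMADs, were higher at 325, 215 and 628 and at 76.1, 50.9 and 251, and the inhibitory SMAD gene Smad7 at 408, 69.3 and 151. Cer1 and the Activin-binding protein gene Fst, at 1124, 4127 and 1152, were lower, both near the untreated level. Targets usually listed together for this pathway thus ran in both directions.

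BMP pathway genes showed small shifts around a few Id and Msx genes. Of 21 measured, 3 passed 2-fold upward and 2 downward (median 0.24), beside 1.04% and 1.01% of all genes. Id3, an inhibitor of bHLH factors induced by BMP, stood at 63.1, 70.1 and 190.3 and Id4 at 23.5, 32.9 and 88.5, while Id1 was near level between the treated arrays at 57.3, 119 and 144 and Id2 was lower at 248, 82.2 and 40.4. Msx2, a homeobox target of BMP, stood at 19.2, 22.3 and 53.0. The ligand genes Bmp7 and Bmp4 stood at 88.8, 577 and 257 and at 146, 206 and 285, only the former past 2-fold.

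Retinoic acid genes differed in both directions. Cyp26a1, the enzyme that degrades retinoic acid, stood at 29.7, 917 and 29.9 (30.6-fold lower with PD). Stra6 was 21.8-fold higher, Rdh10, which makes retinaldehyde from retinol, stood at 175, 326 and 709.6, and Dhrs3, which converts it back, at 66.3, 32.3 and 189. The synthesising enzyme gene Aldh1a2 was lower at 33.4, 120.5 and 65.5, short of 2-fold, and Crabp1 and Rxrg, a binding protein and a nuclear receptor, were lower at 147, 185 and 62.6 and at 137, 95.6 and 40.8. Rarb, a direct target of retinoic acid receptors, was dim on all 3 arrays at 34.5, 36.9 and 45.1. Of the 19 genes, 3 thus passed 2-fold in each direction, with a median of 0.04.

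The promoters of Cyp26a1 and Stra6 are shown because these 2 genes differed most of this list, in opposite directions. They are given as above, with the T-box motif AGGTGTG or its reverse complement in capitals, which lies 203 bases before the start on the other strand in Cyp26a1 (chr19:37697558-37697807, plus strand). In Stra6 (chr9:58128838-58129087, plus strand) it lies 176 bases before the start on the strand of the gene.
Cyp26a1: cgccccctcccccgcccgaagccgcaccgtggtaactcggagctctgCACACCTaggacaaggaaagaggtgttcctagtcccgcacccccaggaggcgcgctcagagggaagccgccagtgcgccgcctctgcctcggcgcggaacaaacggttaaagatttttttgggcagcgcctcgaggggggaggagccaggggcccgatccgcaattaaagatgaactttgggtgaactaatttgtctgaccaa
Stra6: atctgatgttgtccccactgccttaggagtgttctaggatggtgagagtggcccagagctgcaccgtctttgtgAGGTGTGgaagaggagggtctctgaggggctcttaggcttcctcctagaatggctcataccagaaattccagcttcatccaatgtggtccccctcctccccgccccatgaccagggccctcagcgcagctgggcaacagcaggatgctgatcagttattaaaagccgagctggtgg
The same letters therefore occurred in the promoter of a gene at 29.9 with PD and in that of a gene at 1356, and none of the other 3 motifs occurred in either stretch.

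Pluripotency factors did not move as a block. Of 15 core genes, Nanog, Sox2 and Fgf4 were at least 2-fold higher with PD and Tdgf1 and Utf1 at least 2-fold lower. Sox2, the partner of Oct4, stood at 599, 106 and 302, so with PD it was above the CHIR level and below the untreated one. Utf1, a chromatin protein of pluripotent cells, stood at 3091, 473 and 91.7. Dppa2 and Dppa4, a chromatin-binding pair, were stepwise lower at 1239, 216 and 125 and at 457, 166 and 89.9, as was the RNA-binding protein gene L1td1 at 1656, 472 and 271.

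Of 18 naive genes, 13 were higher with PD but only Klf2, Tfcp2l1 and Nr0b1 by 2-fold or more, and Klf5 was at least 2-fold lower (median 0.22). Klf2, a Kruppel-like factor sensitive to ERK, stood at 117, 67.4 and 307, against 1732 in mESC with both inhibitors. Tfcp2l1, a factor downstream of LIF and Wnt signals, stood at 39.0, 44.9 and 151, against 1884. Nr0b1, an orphan nuclear receptor, stood at 63.5, 23.3 and 51.4, near the low end of the array. Klf4 at 36.0, 41.4 and 51.6, Prdm14 at 31.2, 36.6 and 36.0 and Dppa3 at 71.5, 50.6 and 56.9 remained dim. Higher Nanog was therefore accompanied by 3 of the 18 naive genes.

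Formative and primed genes had the opposite balance. Of 19, 7 were at least 2-fold lower with PD (Fgf5, Etv4, Dusp6, Otx2, Cdh2, Pim2 and Lef1), beside 1.01% of all genes. Among these, Etv4, Dusp6 and Lef1 were also counted in the Ets, phosphatase and Wnt target lists. The list was low in mESC too, with 5 genes at least 2-fold lower and a median of -0.53, against -0.17 in EpiLC. Fzd10, a Wnt receptor, was higher at 79.6, 133 and 425. Pim2, a serine/threonine kinase, stood at 3021, 932 and 319. Others were already low with CHIR alone and did not differ further. The POU factor Pou3f1 (Oct6) stood at 538, 123 and 145, Sall2 at 362, 128 and 147 and the de novo methyltransferase gene Dnmt3a at 1094, 442 and 503, whereas Dnmt3b stood at 4847, 1279 and 788. Of the 11, 15 and 9 genes measured in the DNA methylation, germline and 2-cell-like lists, none passed 2-fold. As 1.04% and 1.01% of all genes passed it upward and downward, none in lists this short is near that background.

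In the ectoderm lists, 1 of 21 neuroectoderm genes and 3 of 15 non-neural ectoderm and amnion genes passed 2-fold upward, beside 1.04% of all genes. In the neuroectoderm list of 21, Sox1 (20.5-fold) was the only gene at least 2-fold higher. Pax6 at 124, 87.2 and 82.3, Zic1 at 70.2, 72.4 and 61.1 and Olig2 at 44.9, 38.4 and 41.3, other neural factors, were not higher with PD by 2-fold, and Fabp7, a fatty acid binding protein of radial glia, was lower at 89.4, 901 and 117. Sox9, a factor of neural crest and several epithelia, and Foxd1, a forkhead factor, both named after their values had been seen, stood at 240.4, 244 and 1388 and at 73.1, 78.8 and 335. Of 15 genes of non-neural ectoderm and amnion, Wnt6, Msx2 and Dlx3 (at 89.3, 68.0 and 157) were at least 2-fold higher. The defining factors Tfap2a at 25.8, 27.3 and 24.9, Trp63 at 82.3, 82.9 and 94.0 and Gata3 at 54.7, 58.4 and 62.1 stayed dim.

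Simple epithelial keratins were higher to unequal degrees, and 2 of the 4 passed 2-fold. Krt7 stood at 47.5, 41.5 and 158, Krt8 at 470.0, 1102 and 2064 and Krt18, where both probes were at least 2-fold higher or just at that mark, at 313, 586 and 1248. Krt19 was nearly level between the treated arrays at 125, 588 and 644. The trophoblast genes of the same list of 16 differed in both directions. Peg10, a retrotransposon-derived placental gene, stood at 398, 687 and 1289.9 and Plac1 at 22.8, 18.3 and 28.9, both higher short of 2-fold, as was Cdx2, given above. Phlda2, an imprinted placental gene, was at least 2-fold lower at 487, 758 and 288, as were Eomes and Ascl2. Elf5 at 64.5, 62.1 and 59.6, Tead4 at 75.2, 71.5 and 67.1 and Hand1 at 61.3, 39.3 and 52.9 lay within 2-fold. Among adhesion genes the tight junction gene Cldn3 was higher at 179, 262 and 624. N-cadherin (Cdh2) stood at 253, 1554 and 472, with both of its probes lower with PD (log2 differences -1.60 and -1.84). E-cadherin (Cdh1) was level at 859, 753 and 918, and Vim, an intermediate filament gene, stayed high at 1118, 2521 and 3267.

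**Figure D3:**
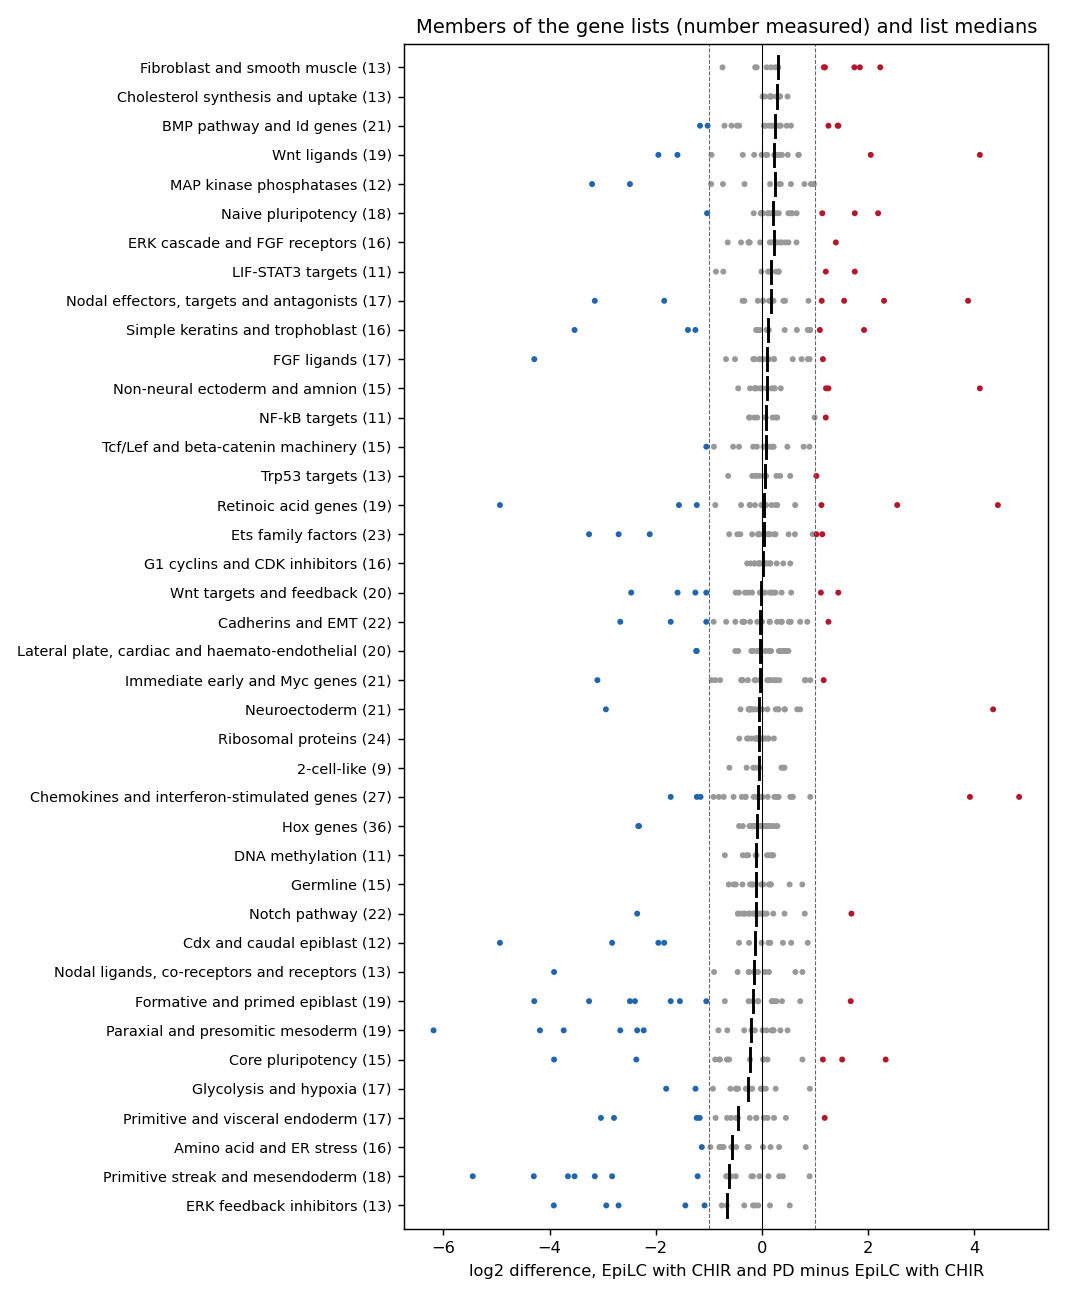
The log2 difference (CHIR and PD minus CHIR, EpiLC) of every measured member of the gene lists, 1 point per gene, with the list median as a black bar and the number measured in brackets; dashed lines mark 2-fold. The ERK feedback, primitive streak and amino acid lists have the lowest medians (-0.66, -0.62 and -0.56), and most lists hold members on both sides of zero.

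Some contractile and cytoskeletal genes were higher. Tagln (SM22), Cnn1 (calponin) and Acta2 (smooth muscle actin) stood at 374, 343 and 1607, at 342, 289 and 1037 and at 613, 253 and 845. Myl9, a myosin light chain gene of the same list, was nearly level at 271, 282 and 299.8. The cardiac actin gene Actc1 stood at 335, 298 and 1738, the small GTPase gene Rhob at 366, 413 and 2349 and Thbs1, a matricellular protein gene, at 501, 159 and 763, these 3 named after their values had been seen. Acta2 and Thbs1 were lower with CHIR than without it, and the others were about equal on those arrays. Of the 13 fibroblast and smooth muscle genes measured 5 were at least 2-fold higher, beside 1.04% of all genes. Besides Tagln, Cnn1 and Acta2 these were Col1a1 at 198, 165 and 370.3 and Loxl1 at 95.4, 87.0 and 198. The fibroblast markers listed for this comparison, which include Col1a1, differed among themselves. Col1a1 was the only one at least 2-fold higher. Col1a2, Col3a1, Dcn, Lum and Postn lay between 23.7 (Lum) and 73.4 (Col3a1) with PD, within log2 0.31 of CHIR alone. Thy1 was lower at 80.0, 74.7 and 44.6. The source of the higher Tagln, Cnn1 and Acta2 was not tested.

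The chemokine genes Cxcl11 and Cxcl10 were both among the 5 highest differences of named genes. Cxcl11 stood at 44.1, 36.7 and 1055 and Cxcl10 at 53.4, 57.5 and 869.8, that is 28.8-fold and 15.1-fold higher with PD. Their neighbour Cxcl9, another interferon-induced ligand of the same receptor, was flat at 64.2, 57.7 and 57.4. Of the 27 chemokine and interferon genes measured, only Cxcl11 and Cxcl10 were at least 2-fold higher and 3 were at least 2-fold lower (median -0.08). Other interferon-induced genes lay on both sides of zero. Isg15, a ubiquitin-like protein, stood at 165, 407 and 183, and the RNA sensor gene Ifih1 at 63.0, 162 and 69.1, both at least 2-fold lower, while Irf7 was flat at 42.7, 42.3 and 42.7 and Ifit1 dim at 34.3, 37.6 and 28.9. Oasl2 was higher at 67.6, 108 and 157, Irf9 at 75.1, 81.7 and 101 and Ifit2 at 49.7, 35.8 and 44.5, each short of 2-fold. Cxcr4, the CXCL12 receptor of migrating mesoderm, was lower at 67.7, 202 and 61.4. Among 11 NF-kB targets Bcl3 was past 2-fold at 34.7, 37.6 and 86.6 and Nfkbia close to it at 144, 213 and 423, with Tnfaip3 at 62.6, 85.1 and 97.9 and Il6 dim at 27.4, 25.8 and 23.4.

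Further genes among the 15 highest and 15 lowest named ones belong to no list. Cda (cytidine deaminase) stood at 136, 126 and 1671, Ephx3 (an epoxide hydrolase) at 83.1, 58.6 and 878, and Fgfbp1, a carrier that releases FGF from the matrix, at 125, 108 and 923. Mme (neprilysin, a membrane peptidase) stood at 198, 131 and 1263, Sema3c (a semaphorin) at 152, 73.0 and 718 and Pde10a (a phosphodiesterase) at 88.7, 92.1 and 728. These 6 were all under 200 in untreated EpiLC and with CHIR, and each reached its highest EpiLC level with both inhibitors. Lrp2 (megalin, an endocytic receptor) showed another course at 354, 53.3 and 376, low with CHIR alone and at the untreated level with PD. Ap3b2 stood at 239, 178 and 1532 and Aff2 at 58.4, 58.2 and 443. On the low side were Psors1c2 at 1109, 752 and 70.1 and the fatty acid transporter gene Cd36 at 37.1, 414 and 39.4.

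In the Notch pathway, Notch3 was higher at 223, 172 and 552 and Dll3 lower, and the other 20 genes lay within 2-fold, Hes1, a Notch and Wnt responsive repressor, at 232, 667 and 556. Ephrin genes named after their values had been seen differed between ligand and receptor, with Efnb1 at 74.1, 228 and 1329 and Epha1 at 896, 1274 and 257.

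Some metabolic and growth lists had members past 2-fold, to be read beside 1.04% (higher) and 1.01% (lower) of all genes. Of 16 amino acid and ER stress genes, 12 were lower with PD and 4 higher (median -0.56), among them the serine synthesis enzymes Phgdh at 708, 749.7 and 382 and Psat1 at 2248, 2398 and 1376 and the transporter gene Slc7a5 at 2105, 2350.4 and 1396. Trib3, a target of the transcription factor ATF4, was the only one past 2-fold at 243, 301 and 137, and Atf4 itself stood at 1079.7, 1243 and 834. In mESC the median of this list was 0.01. All 13 cholesterol synthesis genes measured were higher, from 0.01 (Mvk) to 0.48 (Cyp51) on the log2 scale. Their median was 0.28, against -0.02 over all genes, and each lies within the range that holds 95% of all genes. Among 17 glycolysis and hypoxia genes Egln3, an oxygen sensor, and Pfkp, a phosphofructokinase, were at least 2-fold lower at 129, 283 and 81.2 and at 238, 384 and 161, and the glucose transporter gene Slc2a3 was higher at 882, 1909 and 3569. None of the 16 cell cycle genes of the G1 list passed 2-fold, which is near the share over all genes. Cdkn1a (p21) came closest at 732, 1910.2 and 2764. Btg2, a p53 target, was past 2-fold at 267, 421 and 858.

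The same addition of PD to CHIR in mESC, measured on arrays not shared with the EpiLC pair, gave 56 genes (0.252%) higher by 2-fold or more and 116 (0.523%) lower by as much. The SD of log2 differences across genes was 0.29 there and 0.37 in EpiLC. Genes at least 2-fold higher in both states numbered 10, which is 4.35% of the EpiLC list and 17.9% of the mESC list. They were Camk2n1, Cryab, Fgfr2, Gadd45b, Gadd45g, Krt18, Mme, Rhob, S1pr1 and Tagln. Genes lower in both numbered 34, or 15.1% and 29.3% of the lists. Across all 22180 genes the log2 differences of the states had a Pearson correlation of 0.21 and a Spearman correlation of 0.13, given as a description, since genes share arrays, normalization and dim probes.

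The genes lower in both states included the feedback inhibitors Spry2, Spry4, Spred1 and Spred3, the phosphatases Dusp4 and Dusp6 and the Ets factors Etv1, Etv4 and Etv5. Spry4 went from 608 to 36.2 in mESC, Dusp4 from 552 to 51.5 and Etv4 from 262 to 26.5, with log2 differences of -4.07, -3.42 and -3.30 beside -3.92, -3.20 and -3.26 in EpiLC. Mixl1, at 33.0 in untreated mESC and 321 in mESC with CHIR alone, was at 33.6 with PD. The list of 13 feedback inhibitors had medians of -0.74 in mESC and -0.66 in EpiLC.

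Other genes differed in 1 state alone by the 2-fold measure. In mESC Msgn1 was dim with and without PD (55.7 and 56.1), as were Tbx6 (60.2 and 56.2), Aplnr (42.8 and 38.9) and Cyp26a1 (34.4 and 28.9). All of them were as dim with CHIR alone as with both inhibitors in that state. Tdgf1 is a different case, because it was high in mESC with CHIR (2341) and remained so with PD (2171). Conversely, Spic, an Ets-related factor, went from 91.5 to 1638 in mESC and was dim in EpiLC at 72.4, 77.1 and 55.9. Bmp4 went from 1670.2 to 200.2 and the cyclin gene Ccnd2 from 214 to 47.8 in mESC, while Ccnd2 was level in EpiLC at 227, 992 and 969. Cdx1 and Cdx2, higher with PD in EpiLC, had mESC log2 differences of -1.22 and -1.30 beside 0.40 and 0.86. The difference between the states was not tested for any gene.

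**Figure D4:**
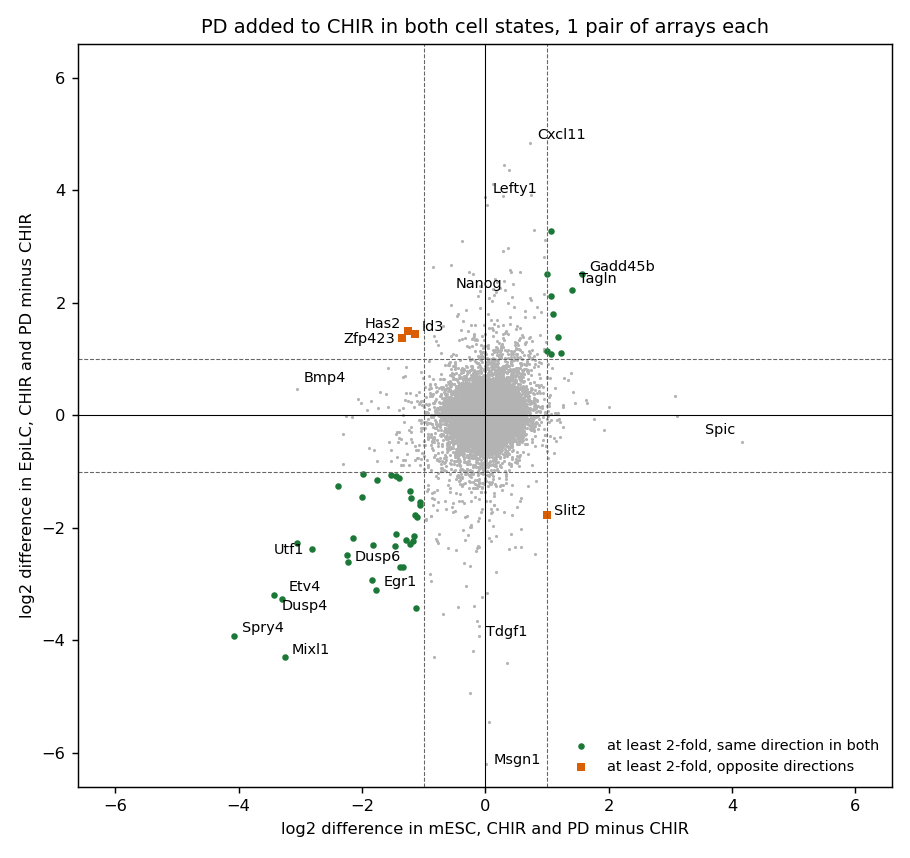
The log2 difference of CHIR and PD minus CHIR in mESC (horizontal) and in EpiLC (vertical) for 22180 genes, 1 pair of arrays per state; dashed lines mark 2-fold. The 44 green genes passed 2-fold in the same direction in both states, among them Spry4, Dusp4 and Etv4, and the 4 orange squares passed it in opposite directions.

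Other ways of handling the intensities moved the sizes of the differences. Of the 130 named genes at least 2-fold different, 0 changed direction under the alternatives that measured them. That was largely fixed by construction and is no check of direction. An added constant keeps the order of a probe's values, and the filter reuses the same values. For a gene with 1 probe, the brightest probe is that probe. All 130 were measured under 5 of the 6 alternatives, and the filter on dim genes kept 127 of them. Adding a constant of 64 after subtracting the lowest value left 102 of them past 2-fold, and quantile normalization left 128, with Id2 and Twist1 short of it. Msgn1 ran from -6.56 to -5.26 and Cxcl11 from 3.70 to 5.40, while the bright genes Aplnr (-3.70 to -3.49) and Apln (-2.64 to -2.55) hardly moved. For a gene dim on 1 of the 2 arrays the fold thus depends on the processing. Where a gene has a bright and a dim probe, it also depends on the probe used. Dusp6 ran from -4.69 to -2.08, Etv1 from -4.26 to -1.91 and Etv5 from -3.65 to -1.62.

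**Figure D5:**
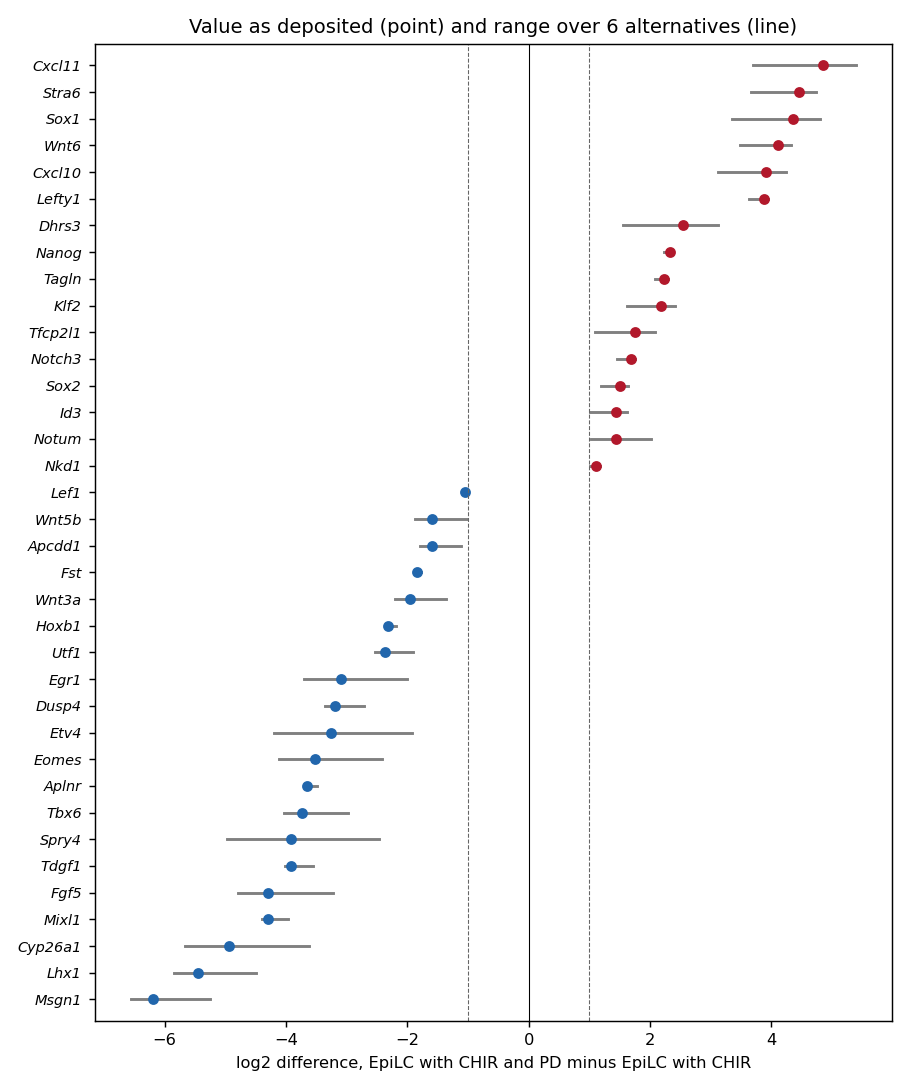
The log2 difference of named genes in EpiLC (point, intensities as deposited) with the lowest and highest value over 6 processing alternatives (line), red for genes higher and blue for genes lower with PD. Lines are long for genes that were dim on 1 array, such as Cyp26a1 and Cxcl11, and short for genes bright on both, such as Aplnr.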

How the data were processed

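RNA of 6 cultures was measured on Affymetrix Mouse Gene 2.0 ST arrays, 1 per group. The authors deposited a linear intensity per probe, normalized between arrays. The normalization method is not given in the sources used here, and the series' design text names GeneSpring GX 11.5. Differences of genes near the lowest intensity of 16 are compressed.

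The table has 33793 probes, of which 23521 had 1 gene symbol, 1814 had several and 8458 had none listed. Those with 1 symbol were averaged per gene on the log2 scale (22180 genes, no filter), and arrays were subtracted in Python 3.11.15 with pandas 2.3.3 and NumPy 2.4.6. With 1 array per group nothing was tested. Their small number limits all precision. Counting was checked on simulated data without noise, which tests the arithmetic alone and not the genes counted here.

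The 41 gene lists hold 681 genes, 631 of them measured. T and Tcf7 are among the 50 that were not measured. Named genes are list members and, outside the lists, the 15 highest and 15 lowest, passing over predicted, clone and small RNA symbols. Another 15 were named after their values were seen. The comparison and its lists were chosen with earlier results of these data known. Alternatives were additive constants, quantile normalization, median centring, the brightest probe and a filter on dim genes. Promoter sequences are RefSeq's (GRCm38.p6).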

Additional observations from a re-analysis of the deposited data

Results flagged for a closer look

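4 genes passed 2-fold in opposite directions in the 2 cell states when PD was added to CHIR, which draws attention to them, although each state is 1 pair of arrays and the difference was not tested. Has2, which makes hyaluronan, went from 265 to 748 in EpiLC and from 158 to 66.3 in mESC, a log2 difference between the states of 2.75. Id3 went from 70.1 to 190.3 in EpiLC and from 425 to 192 in mESC, a difference of 2.59, so that both states stood at about the same level with both inhibitors. Zfp423, a zinc finger partner of SMAD proteins, went from 188 to 489 in EpiLC and from 181 to 71.4 in mESC (difference 2.72). Slit2, a guidance ligand, ran the other way, from 264 to 77.2 in EpiLC and from 97.5 to 195 in mESC (difference -2.77).

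Probes with several gene symbols were left out of the comparison since such a signal may come from any of the genes. Among these 1814 probes, 20 were higher and 12 lower by 2-fold or more with PD in EpiLC. The lowest was a probe shared by Sprr2a1, Sprr2a2 and Sprr2a3, small proline-rich proteins of the cornified envelope, at 63.3 untreated, 2011 with CHIR and 361 with both inhibitors, a log2 difference of -2.48. Another probe, shared with Sprr2b, stood at 845, 22998 and 4858, and 22998 was the highest intensity of the CHIR array.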

How the results depend on the processing

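Quantile normalization, median centring, the brightest probe of each gene and a filter on dim genes (11610 genes kept) gave 215 to 239 genes at least 2-fold higher and 210 to 235 lower, beside 230 and 225. Subtracting the lowest value and adding 4 gave 433 and 461, and adding 64 instead gave 125 and 130; a small constant stretches and a large one compresses differences of dim genes by construction. The count of genes past 2-fold in the same direction in both states, 44, became 82 with 4 added and 18 with 64 added, under alternatives chosen for this count after seeing the data. List medians changed sign for 6 lists when dim genes were left out, which changes the members measured: immediate early and Myc genes to 0.10, Hox genes to 0.01, retinoic acid genes to -0.07, Wnt targets to 0.06, neuroectoderm to 0.13, and cadherins and EMT to 0.07. The G1 cyclin median became -0.02 with 4 added. The other list medians kept their sign, but without dim genes the paraxial mesoderm median became -0.65 (from -0.20), the primitive and visceral endoderm median -0.77 (from -0.45), the keratin and trophoblast median 0.86 (from 0.11) and the fibroblast and smooth muscle median 1.47 (from 0.30). No paired analysis was possible because each group is 1 array, and no replicate could be left out. Signal near the lowest value limits the folds of dim genes.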

Other observations

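Of 11 genes listed as targets or components of LIF and STAT3 signalling, a pathway that maintains naive mESC, 9 were within 2-fold when PD was added to CHIR in EpiLC (median log2 difference 0.17). The other 2, Tfcp2l1 and Bcl3, were higher. Socs3, a feedback target of STAT3, was dim at 32.1, 39.7 and 44.0 (untreated, CHIR, CHIR with PD). The receptor gene Lifr stood at 142, 121 and 66.5, lowest with both inhibitors but short of 2-fold.

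The following 6 genes belong to no list and were picked out once their values were known. Gadd45b, a stress-induced gene, stood at 145, 221 and 1255 in EpiLC and went from 252 to 746 in mESC. Mfap4, a microfibril protein gene, stood at 125, 141 and 654, and Pdgfb, a growth factor gene, at 80.9, 69.4 and 295. Both were highest with both inhibitors. Itga8, an integrin subunit gene, was lower with PD at 69.5, 235 and 44.1. Nt5e (CD73), an enzyme that makes adenosine, stood at 201, 820.0 and 136 and was lower in mESC as well, going from 247 to 52.9. Upp1, a uridine phosphorylase gene, stood at 65.3, 578 and 114 in EpiLC and went from 445 to 664 in mESC. Each value is 1 array, so none of these differences was tested.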
